A study of Mus musculus with 6 samples.

Results

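The receptor chains through which monocytes sense type I IFN, IFN-γ, and IL-10, and the Janus kinases (JAKs) bound to those chains, were examined in RNA-seq of CNS monocytes. The genes were taken by name and comprised 10 of the 54232 genes in the deposited files: *Ifnar1*, *Ifnar2*, *Ifngr1*, *Ifngr2*, *Il10ra*, *Il10rb*, *Jak1*, *Jak2*, *Jak3*, and *Tyk2*. Irradiated GFP+ recipient mice carried equal parts of WT (CD45.1) and Ifnar1-/- (CD45.2) bone marrow, developed EAE, an autoimmune inflammation of the CNS, and were given 30000 IU of IFN-β every day. Donor-derived monocytes (GFP-CD45+CD11b+Ly6ChiLy6G-) were sorted from the CNS at the peak of disease, which gave 3 WT and 3 Ifnar1-/- libraries. Both groups therefore shared the recipient, the disease, and the treatment, and no library from mice without IFN-β is included, so the comparison is between cells that carried the type I IFN receptor and cells that did not under the same treatment. The Ifnar1-/- donors lacked the receptor in all their marrow-derived cells, and the WT and Ifnar1-/- donors also carried different CD45 alleles. Neither the targeted stretch of *Ifnar1* nor the age and sex of the chimeric mice is given in the sources used here. There were 3 recipients, each with marrow of both genotypes, so the 6 libraries cannot each have come from a different mouse, and it is not stated which of them share one. As a result, p-values measure only the spread between these libraries.

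Type I IFNs, such as IFN-β, bind a receptor made of the IFNAR1 and IFNAR2 chains, which hold the kinases TYK2 and JAK1, respectively. IFN-γ binds IFNGR1, which holds JAK1, and signals together with IFNGR2, which holds JAK2. IL-10 binds IL10RA, which holds JAK1, and signals together with IL10RB, which holds TYK2 and is shared with the receptors of IL-22 and of type III IFNs. The kinases phosphorylate each other, the receptor tails, and then STAT proteins, which enter the nucleus and switch on target genes. In monocytes and macrophages, type I IFN and IFN-γ are known for antiviral and antigen-presentation programs, and IL-10 for restraint of inflammatory cytokine genes.

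Libraries held from 4531782 to 7321380 expected counts (RSEM estimates of the reads of each gene) in WT and from 5442568 to 6916101 in Ifnar1-/- monocytes. A listed count of 0 allows up to 3 counts, which was 0.410 to 0.662 CPM (counts scaled to the library total), and such limits cover counting error only. All 8 monocyte marker genes were tested. Their summed level was 8413 to 10221 normalized CPM in WT and 8870 to 10198 in Ifnar1-/- libraries, with *Lyz2* and *Itgam* as its largest parts. The 1 called was *Ly6c2*, a gene of the sort marker Ly6C (log2 fold change 1.40). At an unadjusted edgeR p under 0.05 there were 3 of the 8, where 17.8% of all tested genes passed that limit. Besides *Ly6c2* these were *Fcgr1*, higher in WT (log2 fold change 0.71), and *Ccr2*, lower in WT (-0.62). Summed T cell markers (8 genes) were at 20.0 to 48.2 normalized CPM in WT and 7.79 to 17.3 in Ifnar1-/- libraries, and summed NK cell markers (6 genes) were at 19.1 to 28.4 and 2.94 to 7.18. Most of the NK cell sum in WT was 1 gene, *Klrk1*, at 13.5, 16.2, and 15.4 normalized CPM, while *Ncr1* had at most 2 counts in any library. Summed neutrophil markers spread widely within each group (155 to 1374 in WT and 356 to 1338 in Ifnar1-/- libraries), and microglia markers were at 257 to 330 and 297 to 374. RNA was measured in bulk, so fewer cells of a type and less RNA per cell cannot be told apart.

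All 10 genes were well above the detection limit, with 194 to 2282 counts per library, and all 10 passed the filter on low counts. WT was compared with Ifnar1-/- monocytes by edgeR's quasi-likelihood test over 11254 genes, and a gene was called when the Benjamini-Hochberg adjusted p was at most 0.05 and the fold change at least 1.5. None of the 10 receptor and kinase genes was called (0 of 10), where 2.13% of all tested genes were called, 1.67% as higher and 0.462% as lower in WT. DESeq2 and limma-voom also called 0 of 10, and the number stayed at 0 when each library was left out. At an unadjusted edgeR p under 0.05 there were 2, *Il10ra* and *Ifngr2*, where 17.8% of all tested genes passed that limit. Log2 fold changes of WT over Ifnar1-/- were positive for 8 of the 10, with a median of 0.27, whereas the median over all tested genes was -0.01 and 48.2% were positive. With offsets for GC content and length, which were added after seeing the data, the median of the 10 was 0.07 and 6 were positive, and without WT replicate 1 the median was 0.13. Across 11242 genes, log2 fold changes correlated with GC content (Spearman's rho = 0.379) and with length (rho = 0.216), where genes are not independent replicates.

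**Figure D1:**
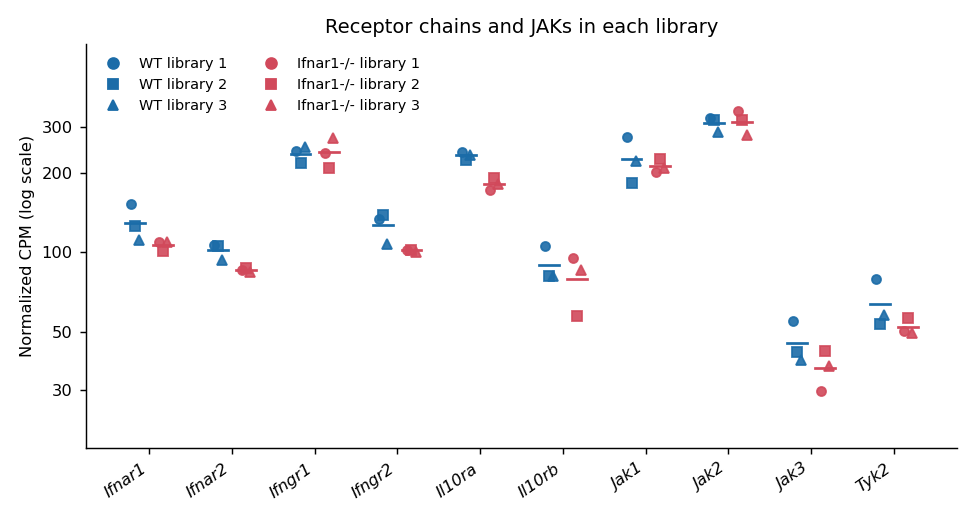
Normalized CPM (vertical axis, log scale) of the 10 genes in each library, with WT libraries in blue, Ifnar1-/- libraries in red, a symbol for each library number, and a line at each group mean. All 3 WT libraries lie above all 3 Ifnar1-/- libraries for *Ifnar1*, *Ifnar2*, *Ifngr2*, and *Il10ra*, and the groups overlap for the other 6 genes.

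The 95% confidence interval of the fold change lay within a 1.5-fold change in either direction for 4 of the 10 genes. These were *Ifnar2* (fold change of 0.975 to 1.46), *Ifngr1* (0.785 to 1.25), *Jak1* (0.825 to 1.39), and *Jak2* (0.790 to 1.24). For the other 6 genes, a difference of 1.5-fold with WT higher remained within the interval, so a change of that size was not excluded. The normalized CPM of all WT libraries exceeded those of all Ifnar1-/- libraries for 4 of the 10, where 11.1% of all tested genes showed that order and 12.2% the opposite one.

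**Figure D2:**
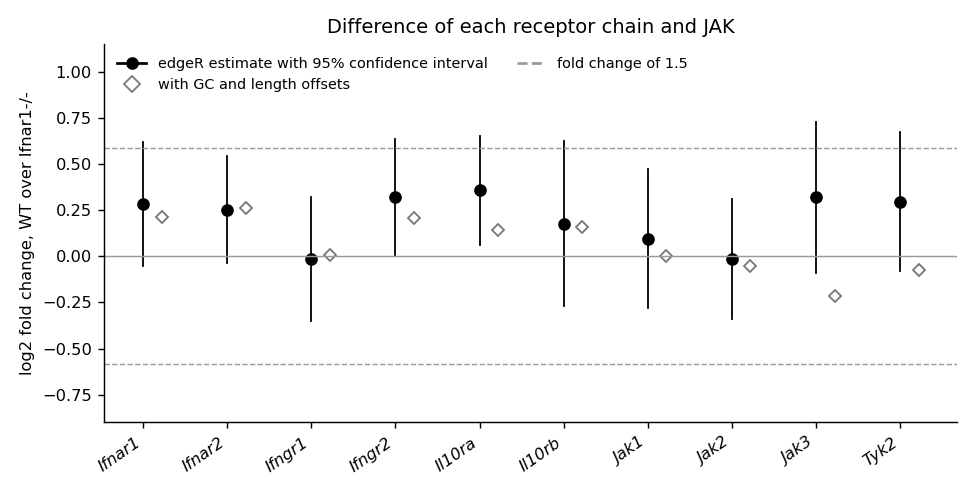
Log2 fold change of WT over Ifnar1-/- monocytes (vertical axis) for the 10 genes, with edgeR estimates as filled circles, 95% confidence intervals as bars, and estimates with GC and length offsets as open diamonds. Dashed lines mark a fold change of 1.5, and the circles run from -0.02 for *Jak2* to 0.36 for *Il10ra*, while the diamonds of *Jak3* and *Tyk2* fall below 0.

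*Ifnar1*, the gene targeted in the donors and the chain that holds TYK2 (ENSMUSG00000022967.13, GRCm38 chromosome 16, 91485238 to 91507441, plus strand), was transcribed in both groups. WT libraries 1, 2, and 3 held it at 153, 126, and 111 normalized CPM, and the Ifnar1-/- libraries at 110, 102, and 109. WT libraries 1 and 2 stood above the rest, and WT library 3 was just above the highest Ifnar1-/- library. Its log2 fold change was 0.28, with an SE of 0.15, a 95% confidence interval of -0.05 to 0.62, and an adjusted p of 0.360 by edgeR, and without WT replicate 1 it was 0.16. Normalized counts of the gene did not overlap between the genotypes, but the difference did not meet the call rule. Counts do not check the labels, since the targeted stretch is not known here.

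*Ifnar2*, the chain that holds JAK1 and binds the ligand with high affinity, starts 112 kb before *Ifnar1* on the same strand (chromosome 16, 91372783 to 91405589). Its normalized CPM were 107, 106, and 93.4 in the WT group and 85.5, 87.3, and 84.4 in the Ifnar1-/- group. The groups did not overlap, and the estimate on the log2 scale was 0.25, with an SE of 0.13, a 95% confidence interval of -0.04 to 0.54, and an adjusted p of 0.342 by edgeR.

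Genes known to be switched on by type I IFN separated the groups. All 12 that were listed were tested and all 12 were called as higher in WT, where 1.67% of all tested genes were. Their log2 fold changes ran from 3.06 to 5.22, with a median of 4.49. The list was chosen with earlier results of these data known, so this count is a description and not an independent test. Their summed level was 1742 to 2864 normalized CPM in WT and 98.0 to 114 in Ifnar1-/- libraries. *Oas1a*, which makes the activator of RNase L, was at 150 ± 26.1 normalized CPM in WT and 5.73 ± 0.512 in Ifnar1-/- monocytes (SD, n = 3 each; log2 fold change 4.70, SE 0.19; adjusted p = 2.17e-06 by edgeR). *Ifit2*, which binds foreign RNA, was at 444 ± 105 and 19.4 ± 1.43 normalized CPM (log2 fold change 4.52, SE 0.21). *Mx1*, an antiviral GTPase, had a log2 fold change of 4.47 (SE 0.28). *Usp18*, which removes ISG15 from proteins and blocks signaling at IFNAR2, had one of 4.09 (SE 0.25).

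Promoters of the 2 type I receptor chains and of 2 IFN-induced genes are printed as examples of the receptor genes and of the genes downstream of them, with the matches to both motifs searched. Promoter windows of 250 bases before to 50 bases after the start (RefSeq, GRCm38.p6) were found for 8 of the 10 genes, and *Il10ra* and *Il10rb* had none in that table. Both strands were searched for the ISRE core (GAAA, 2 bases of any kind, GAAA), found in many IFN-induced genes, and for the GAS (TTCNNNGAA), the letters read by STAT dimers. Capitals mark the GAS matches in *Ifnar1* (chr16:91484965-91485264, plus strand) and *Ifnar2* (chr16:91372533-91372832, plus strand), and the ISRE core matches in *Isg15* (chr4:156200769-156201068, minus strand) and *Ifit1* (chr19:34640639-34640938, plus strand), of which those in *Isg15* overlap each other.
Ifnar1: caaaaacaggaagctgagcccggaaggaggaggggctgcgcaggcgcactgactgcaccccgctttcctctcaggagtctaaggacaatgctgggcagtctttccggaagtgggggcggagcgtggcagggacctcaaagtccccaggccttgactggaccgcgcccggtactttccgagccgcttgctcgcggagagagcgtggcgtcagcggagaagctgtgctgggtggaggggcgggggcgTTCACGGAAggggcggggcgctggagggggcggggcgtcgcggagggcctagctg
Ifnar2: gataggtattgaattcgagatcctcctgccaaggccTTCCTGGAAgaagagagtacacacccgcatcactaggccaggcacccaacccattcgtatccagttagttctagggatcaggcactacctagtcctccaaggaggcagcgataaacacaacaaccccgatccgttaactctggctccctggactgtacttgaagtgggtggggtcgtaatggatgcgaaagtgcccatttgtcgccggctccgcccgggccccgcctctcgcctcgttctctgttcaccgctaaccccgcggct
Isg15: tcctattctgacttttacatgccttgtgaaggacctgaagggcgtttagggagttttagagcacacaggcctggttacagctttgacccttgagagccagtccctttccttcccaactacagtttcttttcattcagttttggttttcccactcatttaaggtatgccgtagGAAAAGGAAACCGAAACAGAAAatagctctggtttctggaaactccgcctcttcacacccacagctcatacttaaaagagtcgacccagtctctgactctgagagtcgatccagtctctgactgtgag
Ifit1: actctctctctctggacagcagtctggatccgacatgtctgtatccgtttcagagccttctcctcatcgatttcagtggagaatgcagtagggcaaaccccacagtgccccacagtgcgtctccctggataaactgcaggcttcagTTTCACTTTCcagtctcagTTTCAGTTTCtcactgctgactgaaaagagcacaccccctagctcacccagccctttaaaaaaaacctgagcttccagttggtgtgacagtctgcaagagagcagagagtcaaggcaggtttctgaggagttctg

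The ISRE core was in 0 of the 8 receptor and kinase promoters and in 5 of the 9 type I IFN target genes with a window (*Ifit1*, *Ifit3*, *Isg15*, *Oas1a*, and *Rsad2*). Over all genes it was in 3.44% of 32851 promoter windows and, counted by gene, in 1079 of 27025 genes. The GAS letters were in 2 of the 8 (*Ifnar1* and *Ifnar2*) and in 2 of the 9 target genes (*Ifit2* and *Oas1a*). Over all genes they were in 8.3% of windows and, counted by gene, in 2582 of 27025 genes. A match describes letters only and is not evidence of a bound site.

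*Ifnar1* differed between the groups in another quantity, the average length of its transcripts. The deposited files give each gene a length averaged over its isoforms, weighted by the abundance that RSEM assigned to each. For *Ifnar1* this length was 3552, 3198, and 3307 bases in WT libraries and 2219, 2284, and 2471 bases in Ifnar1-/- libraries. Every WT library was longer than every Ifnar1-/- library, by a factor of at least 1.29. The means were 3352 ± 181 and 2325 ± 131 bases (SD, n = 3 each), a ratio of 1.44. The two-sided exact permutation p was 0.1, the smallest that 3 libraries against 3 can give, and 0.667 after adjustment over the 10 genes. The log2 ratio was 0.53, and it stayed between 0.48 and 0.57 when each library was left out.

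For the other 9 genes the groups overlapped in length. The next largest ratio was that of *Jak1*, 1.10, with 3368, 3345, and 3264 bases in WT libraries and 3336, 2906, and 2812 bases in Ifnar1-/- libraries. Ifnar1-/- libraries 2 and 3 were the shorter ones, and library 1 was within the WT range. The remaining ratios ran from 0.993 for *Ifnar2* to 1.05 for *Ifngr2*. Lengths did not overlap between the groups for 10.6% of the 8985 tested genes whose length varied, and all WT libraries were longer for 6.01%. By the gap between the groups, *Ifnar1* ranked 17 of those 8985 genes, and by the ratio of means it ranked 203. Among the 2821 of them with a mean of at least 50 CPM, a limit chosen after seeing the data, it ranked 1 by gap and 3 by ratio.

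**Figure D3:**
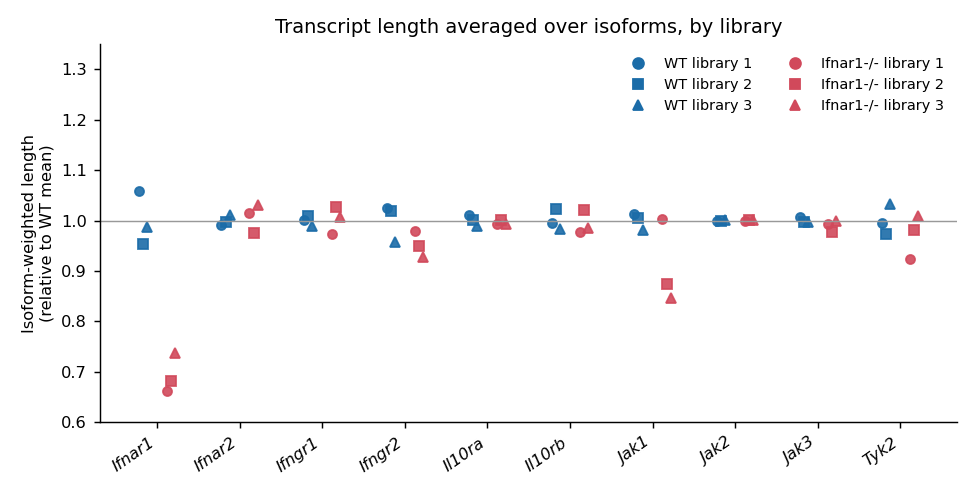
Isoform-weighted transcript length divided by the WT mean (vertical axis, no unit) for the 10 genes in each library, with WT libraries in blue and Ifnar1-/- libraries in red. The 3 Ifnar1-/- libraries stand apart from WT for *Ifnar1* (2219 to 2471 against 3198 to 3552 bases) and overlap with WT for the other 9 genes.

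The annotation gives *Ifnar1* 8 isoforms of 415 to 3909 bases. The longest, Ifnar1-201, has 11 exons, and Ifnar1-202 (2771 bases, 12 exons) holds the same 1770 coding bases with less sequence after the stop codon, since its last exon has 915 bases and that of Ifnar1-201 has 2387. The others are Ifnar1-203 (3433 bases), Ifnar1-205 (2234 bases, 2 exons, no coding sequence), and 4 of at most 552 bases. Given these lengths, Ifnar1-201 could make up at most 89.8%, 79.6%, and 82.8% of *Ifnar1* transcripts in WT libraries and at most 51.6%, 53.5%, and 58.9% in Ifnar1-/- libraries. The gene-level files do not show which isoforms or exons carried the reads, and RSEM assigns reads to annotated isoforms only.

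**Figure D4:**
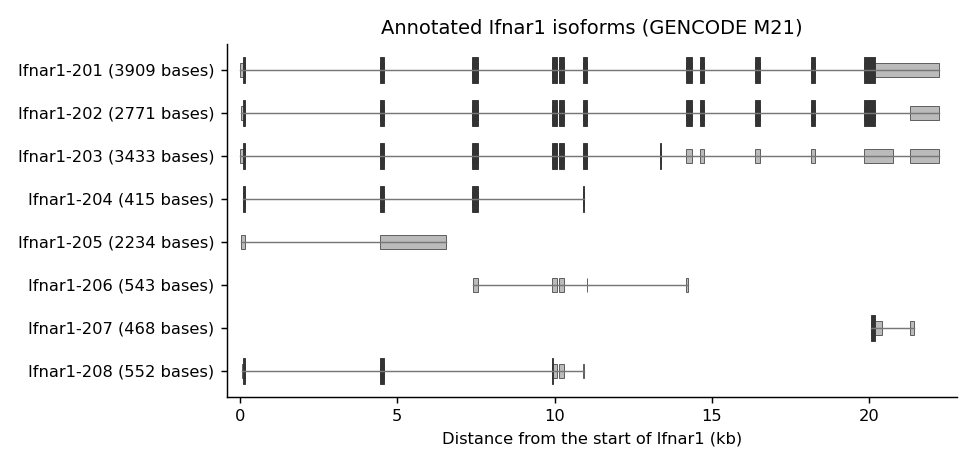
The 8 annotated isoforms of *Ifnar1* (vertical axis, with their lengths) drawn against distance from the start of the gene (horizontal axis, kb), with exons as boxes, coding parts as tall dark boxes, and introns as lines. Ifnar1-201 and Ifnar1-202 share their coding exons and differ at the 3′ end, and 4 of the 8 isoforms have at most 552 bases.

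The length enters every value per length, so the level of *Ifnar1* depended on the scale. As TPM it was 32.2, 43.0, and 36.7 for WT and 46.8, 48.7, and 41.7 for Ifnar1-/- monocytes, a log2 difference of -0.30, opposite in sign to the difference in counts. The groups overlapped in TPM, with an exact permutation p of 0.2. TPM in WT library 1 was lowered for all genes by *Rn7s2*, a short noncoding RNA that took 27.8% of its TPM, where the top gene took 7.86% to 11.2% in the other libraries. Rescaled to the TPM of protein-coding genes, *Ifnar1* was at 92.6, 83.5, and 74.0 in WT and 108, 94.4, and 96.0 in Ifnar1-/- libraries, again with Ifnar1-/- higher.

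The balance of the 2 chains within a library does not depend on that scaling. The ratio of *Ifnar1* to *Ifnar2* in TPM was 0.483, 0.453, and 0.443 for WT and 0.747, 0.623, and 0.684 for Ifnar1-/- monocytes. All WT ratios were lower, with a log2 difference of -0.57 and an exact two-sided permutation p of 0.1 (adjusted p = 0.333 over 5 pairs). In normalized CPM, which are not divided by length, the ratio was 1.43, 1.19, and 1.19 in WT and 1.29, 1.16, and 1.30 in Ifnar1-/- libraries. There the groups overlapped and the log2 difference was 0.02, so the difference in the ratio was present on the per-length scale and not in counts.

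Neither chain of the IFN-γ receptor passed the test. *Ifngr1*, the ligand-binding chain that holds JAK1 (chromosome 10, 19591949 to 19610229), was at 243, 219, and 251 normalized CPM in WT and 239, 209, and 272 in Ifnar1-/- libraries. The lowest and the highest value were both in Ifnar1-/- libraries, and the estimate was -0.01 on the log2 scale (SE 0.15; 95% confidence interval -0.35 to 0.32; adjusted p = 0.975 by edgeR). *Ifngr2*, the chain that holds JAK2 (chromosome 16, 91547072 to 91565623), was at 134, 139, and 108 normalized CPM in WT and 102, 102, and 101 in Ifnar1-/- libraries. All WT libraries were higher, with WT library 3 nearest to the Ifnar1-/- level. Its log2 fold change was 0.32, with an SE of 0.14, a 95% confidence interval of 0.00 to 0.64, and an adjusted p of 0.280 by edgeR. The TPM ratio of *Ifngr1* to *Ifngr2* was 3.41, 2.93, and 4.15 in WT and 4.31, 3.45, and 4.53 in Ifnar1-/- libraries, which overlapped (log2 difference -0.23; exact permutation p = 0.2).

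Of 12 listed IFN-γ target genes, 1 was called as higher in WT and 0 as lower, where 2.13% of all tested genes were called. The list's median was 0.08 on the log2 scale. The called gene was *Cxcl10*, a chemokine that type I IFN also induces, at 116 ± 12.2 normalized CPM in WT and 57.1 ± 5.71 in Ifnar1-/- monocytes (SD, n = 3 each; log2 fold change 1.02, SE 0.15; adjusted p = 0.00444 by edgeR). *Ifng* itself was the only tested gene of 25 listed ligands of these and related receptors (*Il19*, *Il20*, and *Il24* for the latter). It was at 2.56 ± 0.700 and 1.61 ± 1.01 normalized CPM (SD, n = 3 each; adjusted p = 0.497 by edgeR). Of those 25 ligand genes, 20 were at 0 in all libraries and 23 were at or under 3 counts in each.

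*Il10ra*, the ligand-binding chain that makes a cell responsive to IL-10 and holds JAK1 (chromosome 9, 45253837 to 45269149, minus strand), had the smallest p of the 10 genes. Its level in normalized CPM was 241, 226, and 235 for WT and 173, 192, and 182 for Ifnar1-/- monocytes. The groups were clear of each other, with means of 234 ± 7.86 and 183 ± 9.74 (SD, n = 3 each). The log2 fold change was 0.36 (SE 0.13; 95% confidence interval 0.06 to 0.65), with an unadjusted p of 0.0220 and an adjusted p of 0.195 by edgeR, and the adjusted p was 0.119 to 0.685 over 17 alternatives. With GC and length offsets the log2 fold change was 0.14, and it was positive in 17 of the 17.

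*Il10rb*, the shared second chain, which holds TYK2 (chromosome 16, 91406164 to 91425834), had the largest standard error of the 10 genes. It was at 106, 81.4, and 81.3 normalized CPM in WT and 95.6, 57.1, and 85.7 in Ifnar1-/- libraries. WT library 1 was the highest and Ifnar1-/- library 2 the lowest, and the groups overlapped (log2 fold change 0.18, SE 0.20; adjusted p = 0.697 by edgeR). Without Ifnar1-/- replicate 2 the log2 fold change was 0.00069. The TPM ratio of *Il10ra* to *Il10rb* was 1.20, 1.53, and 1.54 in WT and 0.963, 1.85, and 1.14 in Ifnar1-/- libraries (log2 difference 0.16; exact permutation p = 0.6).

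Genes known to respond to IL-10 were not called in the main edgeR fit, where 8 of 8 listed were tested and 0 passed in either direction. All 8 were positive, against 48.2% of all tested genes, with log2 fold changes from 0.05 to 0.76 and a median of 0.21. At an unadjusted edgeR p under 0.05 there were 3, where 17.8% of all tested genes passed that limit. The number called was 1 with DESeq2, 1 by edgeR without Ifnar1-/- replicate 2, and 2 without a filter on low counts. The 2 with the highest mean TPM were *Socs3*, an inhibitor of cytokine receptors, at 532 ± 34.4 and 463 ± 19.0 normalized CPM (SD, n = 3 each; adjusted p = 0.499 by edgeR), and *Stat3*, the main STAT of the IL-10 receptor, at 293 ± 38.7 and 265 ± 17.6 (adjusted p = 0.650 by edgeR). *Il20rb* and *F3* (tissue factor), other members of the class II cytokine receptor family, had levels of 1.94 ± 0.543 and 1.34 ± 0.672 normalized CPM in WT and of 2.21 ± 1.10 and 2.76 ± 1.30 in Ifnar1-/- monocytes (SD, n = 3 each). Of the 6 listed, 3 were tested and edgeR called 0 (0 at an unadjusted p under 0.05).

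The kinase *Jak1*, which serves all 3 receptors (chromosome 4, 101152367 to 101265282, minus strand), was at 274, 184, and 223 normalized CPM in WT and 202, 227, and 209 in Ifnar1-/- libraries. Both the highest and the lowest value were in WT libraries, and the estimate on the log2 scale was 0.10, with an SE of 0.17 and an adjusted p of 0.813 by edgeR. *Jak2*, the kinase of IFNGR2 and of the receptors for GM-CSF and IL-3 (chromosome 19, 29251828 to 29313080), was at 325, 320, and 287 in WT and 344, 318, and 279 in Ifnar1-/- libraries. The Ifnar1-/- values enclosed the WT values, and the estimate was -0.02, with an SE of 0.15 and an adjusted p of 0.973 by edgeR.

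*Tyk2*, the kinase of IFNAR1 and IL10RB (chromosome 9, 21104068 to 21131243, minus strand), was at 79.4, 53.3, and 58.0 normalized CPM in WT and 50.1, 56.4, and 49.5 in Ifnar1-/- libraries. WT library 1 stood above all others, and the other 2 WT libraries lay near the Ifnar1-/- range (log2 fold change 0.29, SE 0.17; adjusted p = 0.396 by edgeR). *Jak3*, which binds the common γ chain of the IL-2 receptor family (chromosome 8, 71676296 to 71690575), was at 54.8, 41.9, and 38.9 in WT and 29.6, 42.4, and 37.1 in Ifnar1-/- libraries. WT library 1 was again the highest, and the groups overlapped (log2 fold change 0.32, SE 0.18; adjusted p = 0.396 by edgeR). Without WT replicate 1 the log2 fold changes were 0.11 for *Tyk2* and 0.16 for *Jak3*. The exons of these 2 genes were the richest in GC of the 10, 56.0% for *Tyk2* and 60.8% for *Jak3* against a median of 49.3% over tested genes, and with GC and length offsets their log2 fold changes turned to -0.07 and -0.22. Summed T cell markers, and summed NK cell markers mostly through *Klrk1*, were higher in the WT group, as given above. The part of such cells in the level of *Jak3* was not tested.

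Kinases that work as a pair were set against each other within each library. The TPM ratio of *Jak1* to *Tyk2*, the pair of the type I IFN receptor, was 4.13, 4.05, and 4.95 in WT and 4.50, 5.54, and 6.17 in Ifnar1-/- libraries, with a log2 difference of -0.30 (exact permutation p = 0.2). The groups overlapped in TPM but not in normalized CPM, where the log2 difference was -0.19 (exact permutation p = 0.1). The TPM ratio of *Jak1* to *Jak2*, the pair of the IFN-γ receptor, was 1.29, 0.881, and 1.22 in WT and 0.900, 1.27, and 1.37 in Ifnar1-/- libraries, which overlapped (log2 difference -0.06; exact permutation p = 0.6).

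Per length, the order of the 10 genes by mean TPM over the 6 libraries began with *Ifngr1* at 124 TPM (98.2 to 150). *Ifnar2* (74.4 TPM), *Jak1* (67.4 TPM), *Il10ra* (63.0 TPM), and *Jak2* (59.1 TPM) followed, and neighbours among these 4 changed places between libraries. *Il10rb* (46.7 TPM), *Ifnar1* (41.5 TPM), and *Ifngr2* (33.2 TPM) came next, each above its follower in that trio in 5 of 6 libraries. *Tyk2* (13.8 TPM) and *Jak3* (10.3 TPM, from 7.14 to 12.1) were last. Steps that held in all 6 libraries were those from *Ifngr1* to *Ifnar2*, from *Jak2* to *Il10rb*, from *Ifngr2* to *Tyk2*, and from *Tyk2* to *Jak3*. In mean TPM, *Ifngr1* stood at percentile 93.9 of the tested genes, *Tyk2* at 56.7, and *Jak3* at 48.7.

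Among the partners of these receptors, the STAT proteins and IRF9 had 1 of 8 genes called, *Stat2*, which acts in type I IFN signaling, at 150 ± 34.6 normalized CPM in WT and 36.7 ± 6.72 in Ifnar1-/- monocytes (SD, n = 3 each; log2 fold change 2.04, SE 0.20; adjusted p = 0.000347 by edgeR). The share called over all tested genes was 2.13%. The median of the 8 was 0.34, and all 8 were positive, against 48.2% of all tested genes. At an unadjusted edgeR p under 0.05 there were 3 of the 8, where 17.8% of all tested genes passed that limit. Of 19 negative regulators, such as the SOCS proteins and phosphatases, 1 was called, *Usp18*, and the median was 0.20. Of these 19, 15 were positive and 4 had an unadjusted edgeR p under 0.05.

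Of 31 genes of other receptors that signal through the same JAKs, 20 were tested. On this list 2 were called as higher in WT and 0 as lower, where 2.13% of all tested genes were called. The median log2 fold change was 0.47, and 19 of the 20 were positive, against 48.2% of all tested genes. At an unadjusted edgeR p under 0.05 there were 11, where 17.8% of all tested genes passed that limit. *Il3ra*, the IL-3 receptor chain, was at 20.0 ± 3.53 and 9.96 ± 0.777 normalized CPM (SD, n = 3 each; log2 fold change 1.01, SE 0.20; adjusted p = 0.0267 by edgeR). *Il2rb*, the chain shared by the IL-2 and IL-15 receptors, was at 12.7 ± 5.32 and 4.67 ± 0.410 normalized CPM (SD, n = 3 each; log2 fold change 1.46, SE 0.32; adjusted p = 0.0478 by edgeR). The number called on this list was 0 with GC and length offsets, 0 without WT replicate 1 or any single Ifnar1-/- replicate, 1 without WT replicate 3, and 2 without WT replicate 2. It was 4 with DESeq2, 6 without a filter on low counts, 1 with limma-voom, and 2 with offsets and the replicate block together. *Il2rb* is also expressed by T and NK cells. The 6 tested T cell markers moved in the same direction, with a median log2 fold change of 1.73, 0 called, and 6 at an unadjusted edgeR p under 0.05. Of the 6 listed NK cell markers only 2 were tested, and 1 of them, *Klrk1*, an NK cell receptor, was called with 2.05. *Ncr1*, *Klrb1c*, *Eomes*, and *Prf1* had too few counts to be tested. The part of such cells in the *Il2rb* result was not tested.

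**Figure D5:**
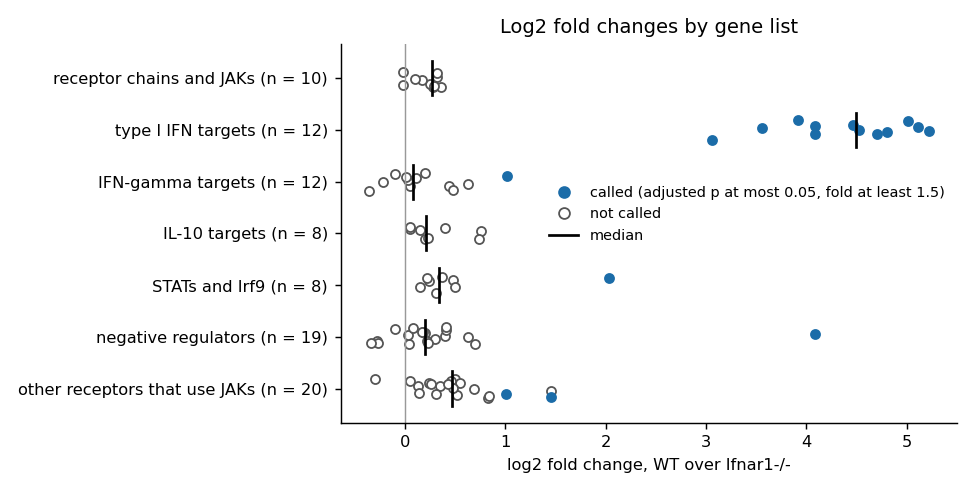
Log2 fold change of WT over Ifnar1-/- monocytes (horizontal axis) for the tested genes of each list (rows), with called genes filled, other genes open, and a bar at the median of each list. The 10 receptor and kinase genes lie between -0.02 and 0.36 with 0 called, and the 12 type I IFN targets lie between 3.06 and 5.22 with 12 called. All lists were chosen with earlier results of these data known.

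A run of 4 receptor genes sits together, since *Ifnar2*, *Il10rb*, *Ifnar1*, and *Ifngr2* follow each other on the plus strand of chromosome 16 within 193 kb. Within 1 Mb of *Ifnar1* there were 81 annotated genes, of which 23 were tested, these 4 and 19 others, whose log2 fold changes had a median of 0.10. The call rule was met by 1 of the 23, where 2.13% of all tested genes met it. This gene was *Gart*, an enzyme of purine synthesis (chromosome 16, 91621186 to 91646952, minus strand). It was lower in WT, at 33.4, 32.3, and 32.2 normalized CPM against 49.6, 55.4, and 47.3 in Ifnar1-/- libraries (log2 fold change -0.64, SE 0.13; adjusted p = 0.0400 by edgeR). The call was lost whenever any library was left out and when a term for the replicate number alone was added (0 called). With that term and GC and length offsets together, 3 genes of this window were called. The DNA around the targeted allele goes with the genotype in these libraries, and whether it differs between the donors is not given in the sources used here, so any part of it and that of receptor loss cannot be told apart.

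*Il10ra*, as the gene with the smallest p, was compared with every other tested gene for the likeness of its pattern over the 6 libraries. The 5 genes with the highest Pearson correlation of log2 normalized CPM were *Dvl3* (0.998), *Rnf213* (0.996), *Ifi211* (0.995), *Ap3m2* (0.994), and *Epsti1* (0.994). *Rnf213*, *Ifi211*, and *Epsti1* were themselves called as higher in WT, with log2 fold changes of 2.09, 1.22, and 1.60. The 6 points share the 2 groups, so genes that separate the groups evenly correlate with each other.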

How the data were processed

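RNA-seq was examined in 3 WT and 3 Ifnar1-/- libraries of CNS monocytes, grouped by the deposited labels. The authors mapped reads to GRCm38 with STAR 2.6.0c and used RSEM 1.2.31 to estimate an expected count, a TPM, and an FPKM for each gene, per the labels and file headers. The deposited expected counts are not normalized and were rounded to whole numbers here. The deposited TPM and FPKM are scaled by the authors to transcript length and to library total. The library kit differs between the labels and the study's methods, and the strand setting is not given in the sources used here. Annotated genes that overlap the 10 genes averaged at most 1.33 counts per library.

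Gene names and isoforms came from GENCODE M21, which matched 54165 of 54232 identifiers. Counts were tested with edgeR 4.0.16 (TMM, the filterByExpr filter with a minimum count of 10, quasi-likelihood test, Benjamini-Hochberg adjustment over 11254 genes) in R 4.3.3, and the test was checked on simulated data. The study's methods name DESeq2, used here as an alternative (1.42.0), as was limma-voom (3.58.1). Ratios were compared as log2 values and lengths in bases by exact permutation tests in scipy 1.17.1, with 0.1 TPM added for ratios. Totals are 4531782 to 7321380 counts per library.

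The 10 genes and all lists were chosen with earlier results of these data known. The text names the 10 genes and, for each list, up to 4 called genes with the smallest p, or else the 2 with the highest mean TPM. It also names called neighbours of *Ifnar1*, and the 5 genes most like the one with the smallest p. *Isg15* and *Ifit1* were added for their promoters, and *Rn7s2* was named after its values were seen. The columns of length and effective length are per-gene averages over isoforms. Same-numbered libraries correlated at 0.0265 to 0.289 in their deviations from the group means, and different-numbered libraries at -0.204 to 0.101. These values do not settle whether the numbers pair libraries. The main test took no pairing, and a replicate block was run as an alternative. Alternatives were other normalizations, filters, tools, and features, a replicate block, each library left out, and, added after seeing the data, GC and length offsets, protein-coding genes alone, ratios in CPM, and rescaled TPM.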

Additional observations from a re-analysis of the deposited data

How the results depend on the processing

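None of the 10 receptor and kinase genes was called under any of 17 alternative fits or with the adjusted p alone. With the replicate number as a block, 220 of all genes were called, 0 of the 10 (lowest adjusted p 0.244). Over all genes, 240 calls became 419 with DESeq2, 872 without a filter, and 119 to 245 with 1 library left out. Calls near *Ifnar1* (1) became 3 without a filter, 0 with the replicate block, 0 with the replicate block and DESeq2, 3 with the replicate block and GC and length offsets, and 0 to 0 with 1 library left out. Log2 fold changes near 0 turned sign. That of *Ifngr1* (-0.0147) was 0.0018 with DESeq2, 0.0001 with RLE normalization, 0.0065 with DESeq2 and the block, 0.0043 with offsets, 0.0070 with offsets and the block, and -0.0916 to 0.1040 with 1 library left out. That of *Jak2* (-0.0153) was 0.0009 with DESeq2, 0.0035 with DESeq2 and the block, and -0.0754 to 0.0715. That of *Jak1* (0.0961) was -0.0001 with offsets, -0.0109 with offsets and the block, and -0.0558 to 0.2421. With offsets, without and with the block, *Jak3* was at -0.2178 and -0.2174 and *Tyk2* at -0.0734 and -0.0768. Log2 length ratios with 1 library left out were -0.0326 to 0.0078 for *Ifnar2*, -0.0243 to 0.0142 for *Ifngr1*, -0.0010 to 0.0003 for *Jak2*, -0.0015 to 0.0133 for *Il10ra*, and -0.0081 to 0.0273 for *Il10rb*. By effective length, *Il10ra* was at -0.0045 and *Il10rb* at -0.0103. In CPM, log2 ratio differences were 0.0204 for *Ifnar1* to *Ifnar2* and 0.0896 for *Jak1* to *Jak2*. With 1 library left out they were -0.0414 to 0.4313 for *Il10ra* to *Il10rb* and -0.2443 to 0.1102 for *Jak1* to *Jak2*. Causes were not tested. With 3 libraries per group, exact permutation p-values cannot go below 0.1.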

Other observations

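Among tested genes with a mean of at least 50 CPM, those with the widest gaps in isoform-weighted length after *Ifnar1* were *Slc8b1*, *Lamc1*, *Trak2*, *Znrf2*, and *Pafah1b1*, with gap ratios of 1.25, 1.21, 1.18, 1.17, and 1.17 between the nearest libraries of the 2 groups. The first of these had 2414, 2737, and 2318 bases in WT and 1580, 1860, and 1813 bases in Ifnar1-/- libraries, while *Trak2* was shorter in WT, with 2510, 2380, and 2797 bases against 4440, 3295, and 3739. Of 66 genes of the pathway and target lists whose length varied, 11 (16.7%) did not overlap between the groups, against 10.6% of all 8985 tested genes whose length varied. The widest gap among the 66 was that of *Lifr*, a receptor chain for leukemia inhibitory factor, at 1.21.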
